A study of Mus musculus with 8 samples.

Results

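A cluster of Krüppel-associated box (KRAB) zinc finger genes on mouse chromosome 4, with Gm13139 as its leading gene, was followed in mouse embryonic stem (mES) cells with and without Trim71. The members were taken by symbol from a list of 10 genes (Gm13139, Gm13152, Gm13154, Gm13212, Gm13225, Gm13235, Gm13251, 2610305D13Rik, Zfp600 and Rex2), which had been drawn up with their lower levels in the cells without Trim71 already known. Of these, 8 were among the 13558 transcripts of the table, and Gm13225 and Gm13235 were not analysed here. Because the list was chosen on the difference between the genotypes, that difference is described for the members and not tested.

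KRAB zinc finger proteins bind DNA through arrays of zinc fingers and, through the KRAB domain, bring in the corepressor Trim28 (also called KAP1) with the histone methyltransferase Setdb1. They are known in ES cells for silencing transposable elements, and most lie in clusters of near copies that arose by tandem duplication. Trim71 is an RNA-binding protein and ubiquitin ligase of early embryonic cells.

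The mES cells came from male C57BL/6 mice, grew in medium with fetal calf serum and LIF, and were sorted for the stem cell surface antigen SSEA-1 before harvest. All libraries were from cells with a floxed Trim71 gene (Trimfl/fl); per the methods of the study, the cells also carried a Rosa26-CreERT2 transgene, so that Cre was expressed in every cell and became active with tamoxifen. In the 4 KO libraries (Trim-/-) the cells had been treated with 4-hydroxytamoxifen (4-OHT), 500 nM for 2 days per the labels, and cultured for at least 7 further days; the methods of the study give a lower dose and a shorter further culture. The 4 WT libraries kept the floxed gene and, per the methods, had received DMSO. Loss of Trim71 therefore cannot be told apart here from 4-OHT treatment and active Cre, and the difference between the genotypes below covers them all.

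Each library carries a day and a clone in its labels. The KO libraries were from days 2, 3 and 4 of clone E3 and day 5 of clone 1, in the order of replicates 1 to 4. The WT libraries were from day 1 of clone 1, days 3 and 4 of clone E3 and day 5 of clone 1. Both genotypes therefore rest on the same 2 clones, and days 3, 4 and 5 each hold 1 KO and 1 WT library. Nothing in the labels says that libraries of a clone came from separately derived cultures, so the spread between them may be partly technical.

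The deposited values are DESeq2-normalized read counts from which the authors had removed a clone effect by adding a constant per gene to one clone and subtracting it from the other. Whole reads could be recovered from them for 99.5% of transcripts, which gave 7078596 to 26299533 reads per library. Values are given below as deposited or as normalized reads with the clone correction undone (uncorrected), and log2 differences are of the value + 1. Trim71, the targeted gene, was at 223, 516, 456 and 524 uncorrected normalized reads in KO replicates 1 to 4 and at 3060, 2459, 1711 and 2861 in WT. The 5 ES markers Pou5f1, Sox2, Nanog, Esrrb and Zfp42 summed to between 42108 and 58738 in KO and between 40986 and 52277 in WT, and none passed an unadjusted p of 0.05. Of 6 fibroblast markers 5 were in the table (all but Dcn), and their sum lay between 873 and 1923 in both groups, most of it from Vim. The 5 markers of differentiated cells (Gata6, Sox17, T, Pax6 and Cdx2) summed to 275 in KO replicate 4 and to between 64.6 and 91.7 in the other libraries. In KO replicate 4 Gata6 gave most of the sum, at 155, while Pax6 was at 4.0, its lowest value in any library.

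All 9 listed genes with an annotation lie within 2.13 Mb of chromosome 4 (mm10, chr4:145510759-147642508). Each encodes the KRAB pattern and an array of C2H2 fingers in its translated coding sequence, with 3 fingers in 2610305D13Rik (Zfp979 in RefSeq), 7 in Gm13152 (Zfp982), 10 in Gm13154 (Zfp985), 11 each in Gm13139 (Zfp991) and Gm13251 (Zfp992), 15 in Rex2, 17 in Zfp600 and 20 in Gm13212. Besides, 6 KRAB zinc finger genes of the table that are not members lie in the same stretch or within 1 Mb of it (Gm13051, Gm13157, Gm13242, Gm13247, Zfp534 and Zfp933). Gm13139 itself spans chr4:147132093-147180579 on the plus strand with 7 exons.

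The promoters show how close the copies are. RefSeq (GRCm38.p6) holds a promoter for 6 of the 8 members, and the longest run of letters common to all 6 is 16 bases, set in capitals in the windows from 120 bases before to 30 bases after the start site:

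Gm13152: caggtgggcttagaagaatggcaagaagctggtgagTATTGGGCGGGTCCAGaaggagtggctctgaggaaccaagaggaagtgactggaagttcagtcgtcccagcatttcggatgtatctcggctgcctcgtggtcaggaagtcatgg
Gm13154: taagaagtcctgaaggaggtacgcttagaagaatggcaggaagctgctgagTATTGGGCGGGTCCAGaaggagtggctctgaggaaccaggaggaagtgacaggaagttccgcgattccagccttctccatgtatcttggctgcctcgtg
Gm13212: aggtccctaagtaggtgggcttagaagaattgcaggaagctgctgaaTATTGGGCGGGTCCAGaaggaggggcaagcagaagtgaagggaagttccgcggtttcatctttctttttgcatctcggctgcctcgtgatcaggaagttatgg
2610305D13Rik: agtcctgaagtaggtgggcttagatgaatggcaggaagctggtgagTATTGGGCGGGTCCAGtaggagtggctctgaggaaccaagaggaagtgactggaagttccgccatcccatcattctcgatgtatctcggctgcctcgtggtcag
Rex2: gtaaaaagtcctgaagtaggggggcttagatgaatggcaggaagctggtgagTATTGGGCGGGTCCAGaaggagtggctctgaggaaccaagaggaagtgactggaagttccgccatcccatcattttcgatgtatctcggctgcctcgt

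These windows are at chr4:147492297-147492446 for Gm13152, chr4:147553157-147553306 for Gm13154, chr4:145585080-145585229 for Gm13212 and chr4:147021730-147021879 for Rex2, all on the plus strand, and at chr4:147642479-147642628 on the minus strand for 2610305D13Rik. The Zfp600 window, at chr4:146156707-146156856 on the plus strand, is identical to that of Rex2 over all 150 bases. The other pairs of members were 67.5% to 90.4% identical. Some KRAB genes of the interval that are not members were as close. Gm13242 was 91.3% identical to 2610305D13Rik and Gm13051 88.1% to Gm13152, whereas Zfp933 was only 43.6% identical to Rex2. The common run begins 68 to 84 bases before the start site in the 6 members. Where a gene had more than 1 annotated start site, the window shown was the one with the run furthest downstream. This distance and the identities of the windows rest on that choice. The windows of Rex2 and Gm13152 lie inside their genes, which begin at chr4:146973610 and chr4:147443114. It stands in the promoters of 9 of 27025 genes (0.0333%), searched on both strands over 250 bases before to 50 after each start, and all 9 are on chromosome 4. Of these 9, 6 are the members from which the run was taken, so their place in the count is fixed. The others are Gm13242 (Zfp980) and Gm13157 (Zfp984), KRAB genes of the interval that are not members, and Zfp988. The run holds the letters ATTGG (the CCAAT box read on the other strand) and, overlapping them by 2 bases, GGGCGG (the GC box). Searched the same way, these were in the promoters of 41.1% and 38.2% of genes. A match of letters is not evidence that a factor binds.

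The same closeness bears on what a read can tell. Of all runs of 100 bases in the transcript of Rex2, 76.1% also occur in another gene's transcript, most often that of Zfp600. For Gm13139 the share is 73.8% (most with the pseudogene Znf41-ps), for Zfp600 68.5%, for Gm13212 35.2%, for Gm13251 28.6% and for 2610305D13Rik 15.9%. Gm13152 with 3.0% and Gm13154 with 1.9% are nearly free of such runs. How the authors' counting assigned reads of shared stretches is not given in the sources used here, so the values of Rex2, Zfp600 and Gm13139 are uncertain to that extent.

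Per kb of transcript the members differed widely in level. In WT, 2610305D13Rik was highest with 685 ± 210 uncorrected normalized reads per kb (SD, n = 4). It was followed by Gm13251 (334 ± 126) and Rex2 (315 ± 151), whose WT ranges overlapped and whose order was the reverse in 2 of the 4 libraries. Zfp600 (201 ± 99.2), Gm13154 (177 ± 78.6), Gm13152 (114 ± 45.8) and Gm13139 (109 ± 20.2) came next, each with a range that overlapped the one above. Gm13212 was lowest with 34.9 ± 14 per kb, and its range lay below that of Gm13139. In KO the means per kb ran from 16.2 for Gm13212 to 443 for 2610305D13Rik.

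The fold change between the genotypes was at least 1.5, in the direction of lower values in KO, for 8 of 8 members against 5.46% of all transcripts, a count that the choice of the genes fixes. Their median log2 difference in the deposited values was -1.28, beside a median of 0.00 over all transcripts. Without overlap between the 4 KO and the 4 WT libraries were 3 members (Gm13139, Gm13152 and Gm13212), where 4.62% of all transcripts lay below WT in this way, and uncorrected 2 (Gm13139 and Gm13212), where 3.36% did. In bulk RNA, fewer cells with a transcript and less of it per cell cannot be told apart.

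Gm13139 had the largest difference. Its deposited values in KO replicates 1 to 4 were 78.3, 93.5, 127 and 9.68, and in WT they were 343, 321, 227 and 340. The highest KO value, on day 4, lay below the lowest WT value, also on day 4. The log2 difference was -2.72 ± 0.66 (SE), and -1.46 without KO replicate 4. The lowest of all values, in KO replicate 4, rested on 9 recovered reads, against 261 reads in the WT library of the same day and clone, and KO there stood at 3.51% of WT on the uncorrected scale. KO replicate 4 was also the library with the highest sum of differentiation markers, whose part in this value was not tested. On day 3 KO stood at 28.6% of WT and on day 4 at 55.6%. The clone correction moved Gm13139 little, since its uncorrected values were 76.0, 91.2, 125 and 12 in KO and 345, 319, 224 and 342 in WT.

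Rex2 and Zfp600, the pair with identical promoter windows, moved almost alike. Of the 100-base runs of Rex2, 66.8% also occur in Zfp600, so their counts may not be separate. The part of shared reads or of the promoters in this likeness was not tested. Rex2 was deposited at 719, 715, 256 and 287 in KO and at 1560, 1720, 589 and 1164 in WT, a log2 difference of -1.43 ± 0.51. Zfp600 was deposited at 486, 530, 194 and 178 in KO and at 1004, 1163, 376 and 873 in WT, a log2 difference of -1.39 ± 0.53. In both genes the WT library of day 4 lay below 2 of the KO libraries, so the groups overlapped.

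The clone correction, a constant per gene, changed low values most in proportion. Uncorrected, Rex2 was at 517, 514, 54.6 and 488 in KO and at 1761, 1518, 388 and 1366 in WT, so KO replicate 4 rose from 287 to 488 and KO replicate 3 fell from 256 to 54.6. Zfp600 was likewise at 340, 384, 48.1 and 324 in KO and at 1150, 1016, 230 and 1020 in WT. Leaving aside day 4, KO of these genes lay within 324 to 384 for Zfp600 and 488 to 517 for Rex2, far below any WT library of the other days.

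Gm13152 and Gm13154 are the members that share the fewest 100-base runs with other genes. Only exact matches to annotated transcripts were searched, so reads shared with near copies are not covered. Gm13152 was deposited at 90.9, 90.1, 36.9 and 42.9 in KO and at 184, 217, 99.0 and 177 in WT (log2 difference -1.45 ± 0.40), with no overlap. Gm13154 was deposited at 407, 316, 64.7 and 174 in KO and at 587, 694, 218 and 458 in WT (-1.16 ± 0.66), and only the WT library of day 4 fell among the KO values. Uncorrected, Gm13152 was at 60.4, 59.6, 6.47 and 73.3 in KO against 215, 187, 68.6 and 207 in WT. The lowest of these values rested on 7 reads.

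Gm13212, the member with the most fingers and the lowest level, was deposited at 101, 89.6, 48.6 and 48.7 in KO and at 164, 117, 110 and 110 in WT, without overlap (-0.88 ± 0.30). Uncorrected it was at 74.1, 62.3, 21.3 and 76.0 in KO and at 191, 89.8, 82.8 and 138 in WT. Gm13251 was deposited at 1250, 1137, 166 and 661 in KO and at 1649, 2142, 752 and 1529 in WT (-1.12 ± 0.70), and again the WT library of day 4 fell among the KO values. The smallest difference was that of 2610305D13Rik, deposited at 1863, 1544, 411 and 1114 in KO and at 1860, 2239, 1149 and 1765 in WT (-0.64 ± 0.50). Here KO replicate 1 stood level with WT replicate 1, but uncorrected the same libraries were at 1664 and 2060.

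**Figure D1:**
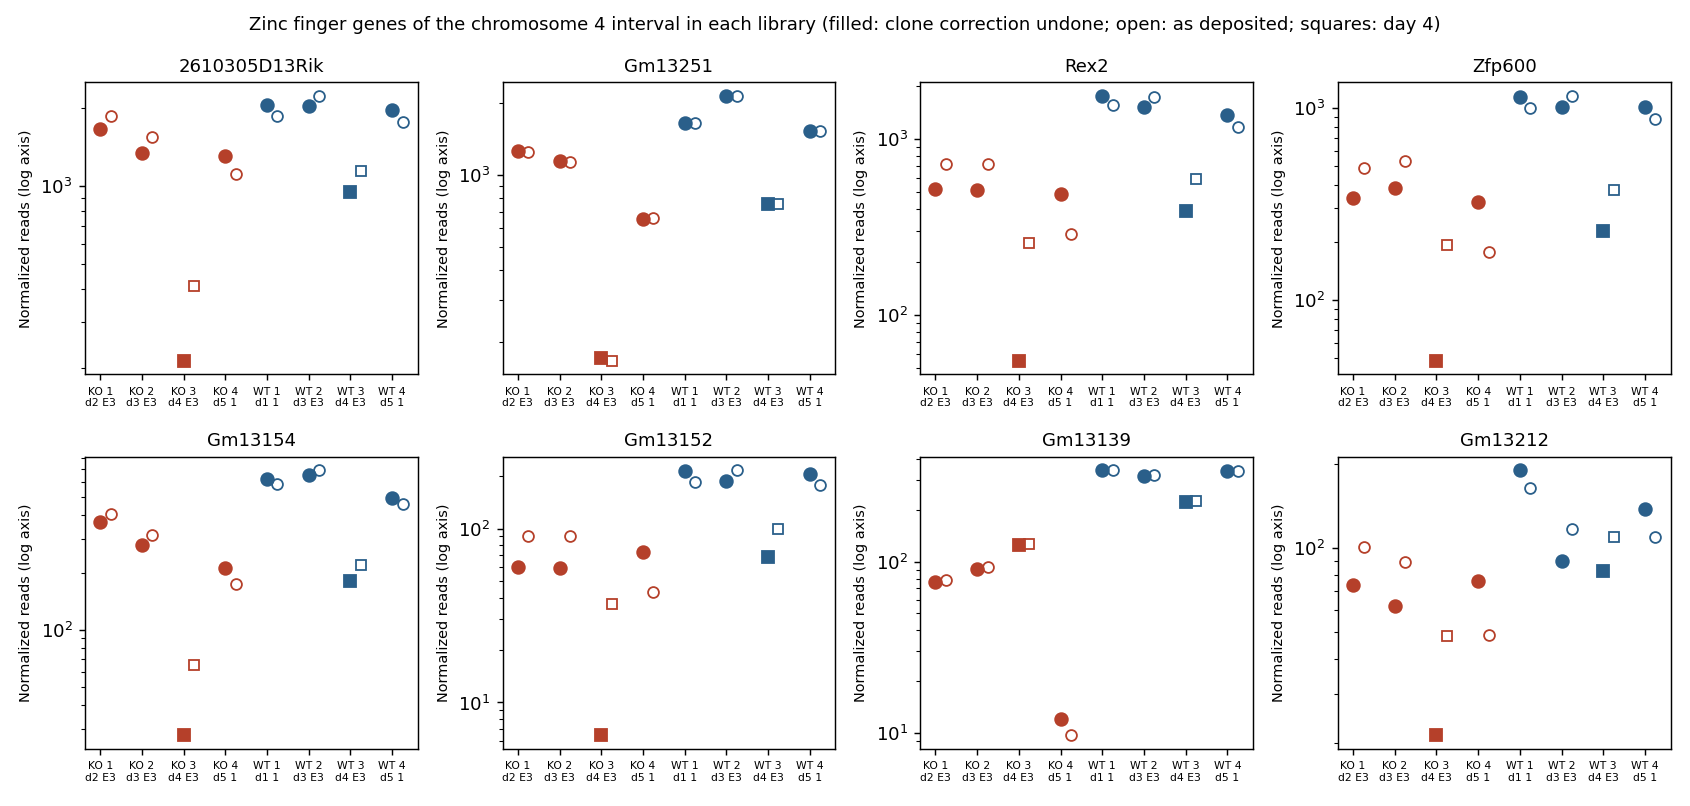
Level of each of the 8 members in each library (log axes, normalized reads), with filled points for the uncorrected values, open points for the deposited values, red for KO, blue for WT and squares for the libraries of day 4. In every panel but that of Gm13139 the filled squares are the lowest points of their genotype, as for Rex2 at 54.6 in KO and 388 in WT.

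Within days the direction held for every member. The genes were chosen on the difference between these same libraries, so the counts below are a description and no separate support. In each of the 3 pairs of a KO and a WT library from the same day, KO lay below WT for 8 of 8 members, on the deposited and on the uncorrected scale, where 25.5% and 25.6% of all transcripts did so. Uncorrected, KO stood at 28.6% to 69.3% of WT on day 3, at 9.44% to 55.6% on day 4 and at 3.51% to 66.9% on day 5. On this scale KO was lowest against WT on day 4 for 7 of the 8 members and on day 5 for Gm13139. The day depends on the scale, since in the deposited values KO stood lower on day 5 than on day 4 for Gm13152 (24.3% and 37.3%), Zfp600 (20.4% and 51.7%) and Rex2 (24.6% and 43.4%) too, and at 44.1% on both days for Gm13212. With day as a block over these 6 libraries the log2 differences ran from -0.89 to -2.53 with a median of -1.44. Without WT replicate 3, 7 members were free of overlap in the deposited values, where 7.12% of all transcripts lay below WT in this way. Leaving out single libraries from the fit of all 8 moved the median between -0.96, without KO replicate 3 or without KO replicate 4, and -1.76, without WT replicate 3, and each member stayed below 0. The difference of 2610305D13Rik was then -0.23 to -0.90 and that of Gm13251 -0.56 to -1.54, with the smaller value without KO replicate 3 and the larger without WT replicate 3.

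**Figure D2:**
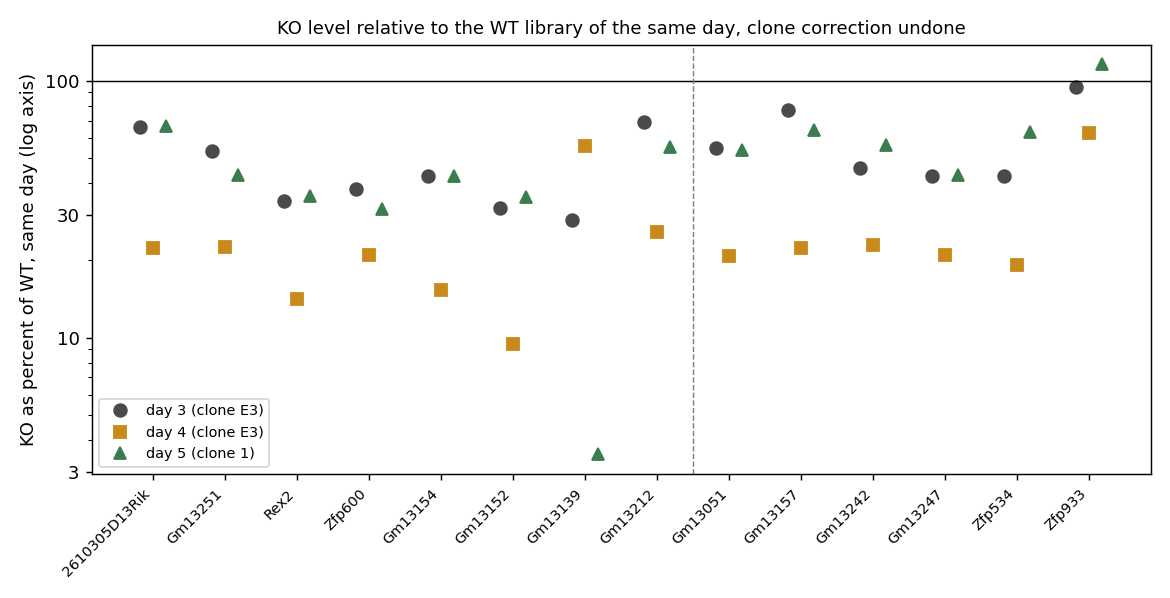
KO level as percent of the WT level of the same day (log axis, uncorrected) for the 8 members, left of the dashed line, and the 6 other KRAB genes of the interval, with 1 point per day. Day 4 gives the lowest point for each gene except Gm13139, whose lowest point is 3.51% on day 5.

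The libraries of day 4 stood apart in the cluster genes in both genotypes, a contrast across genotypes that was noticed after the values had been seen. Uncorrected, the KO library of day 4 held 8.55% to 31.2% of the mean of the other 2 KO libraries of clone E3 in 7 members, and 149% in Gm13139. The WT library of day 4 held 22.6% to 46.6% of the other WT library of that clone in 6 members, 70.4% in Gm13139 and 92.1% in Gm13212. Whether the drop was deeper in KO than in WT was not tested. In both genotypes of clone E3 the day 4 library was the lowest for 7 of 8 members, as it was for 32.5% of all transcripts. The day 4 libraries held 12213732 reads in KO and 26299533 in WT, and the part of depth was not tested.

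The size of the drop was taken from a fit with genotype, clone and day 4 as terms over the 13496 transcripts with recovered reads. Since the contrast was picked on these values, its differences are a description with no test. The members had a median of -2.27, beside -0.01 over all transcripts. On the log2 scale the difference was -2.77 ± 0.37 (SE) for Gm13154, -2.65 ± 0.30 for Rex2, -2.56 ± 0.19 for Zfp600, -2.30 ± 0.38 for Gm13152, -2.24 ± 0.28 for Gm13251 and -2.05 ± 0.38 for 2610305D13Rik. Gm13212 had a difference of -0.98 ± 0.34, and Gm13139 one of -0.08 ± 0.82, with an SE above those of the other members. The 6 non-member KRAB genes of the interval lay between -1.41 (Zfp933) and -2.58 (Gm13242).

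With single libraries left out, the median of the members on day 4 lay between -1.54, without KO replicate 3, and -2.81, without WT replicate 3. Transcripts low in GC had lower differences on day 4 (Spearman's rho of 0.55 between the difference and GC percent over 13411 transcripts, a description), and the members are among the lowest, at 34.4% to 38.6% GC against a median of 50.7%. With the trend over GC and length removed, the median of the members was -1.29 in place of -2.27, with 6 members below and 2 above 0, beside -0.02 over all transcripts. What set day 4 apart was not tested.

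**Figure D3:**
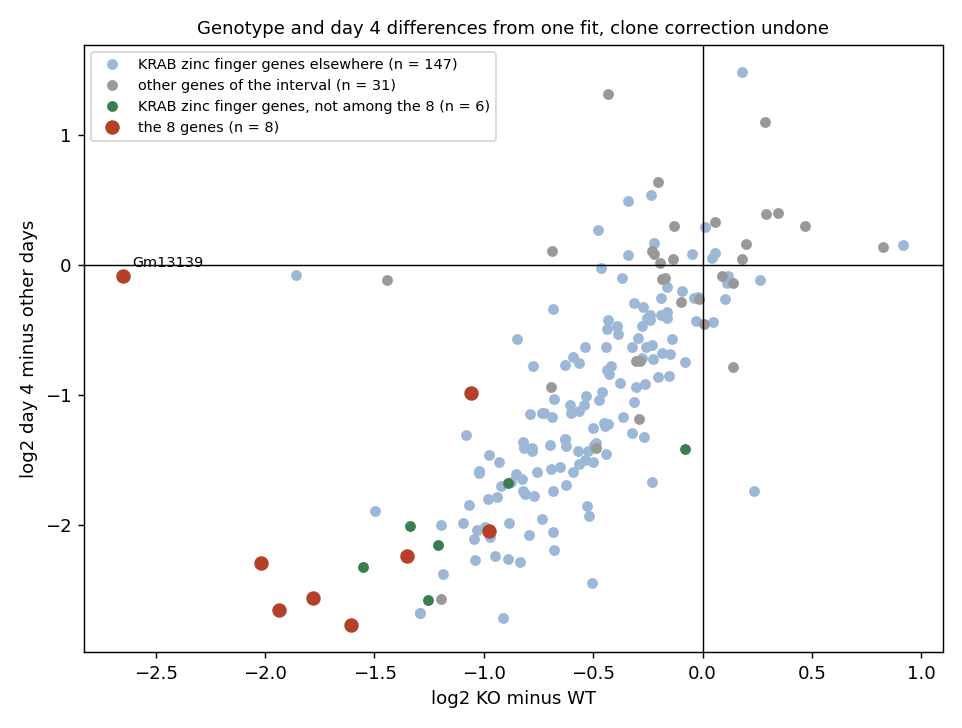
Log2 difference between KO and WT (x axis) against the log2 difference between day 4 and the other days (y axis), both from the fit with a day 4 term, for the 8 members (red), the other KRAB genes of the interval (green), its remaining genes (grey) and the KRAB genes elsewhere (blue). Gm13139 lies at -2.65 and -0.08, apart from the other members, which lie between -0.98 and -2.77 on the y axis. Both differences come from the same 8 libraries, so the slope of the cloud is no result.

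In the fit with a day 4 term, which was made on uncorrected values, the genotype difference of the members had a median of -1.70, with Gm13139 at -2.65 ± 0.66, Gm13152 at -2.02 ± 0.30, Rex2 at -1.94 ± 0.24, Zfp600 at -1.78 ± 0.15, Gm13154 at -1.61 ± 0.30, Gm13251 at -1.35 ± 0.22, Gm13212 at -1.06 ± 0.27 and 2610305D13Rik at -0.98 ± 0.31. Without the libraries of day 4, 7 members were free of overlap on the deposited scale and 8 on the uncorrected scale, where 10.7% and 10.3% of all transcripts lay below WT in this way. The GC content moved with the genotype too (rho of 0.368 over 13473 transcripts), and with the trend over GC and length removed the median was -0.90 and that of 2610305D13Rik -0.20 ± 0.14.

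The members varied together within the genotypes, except for Gm13139. After each group's mean was taken out, the 21 pairs of the other 7 members had a Pearson's r of 0.78 to 0.99 over the 8 libraries (median 0.96). Gm13139 had an r of -0.42 to -0.11 with them. These values are descriptions, since the pairs share libraries and the day 4 libraries carry much of the spread. Znf41-ps, the pseudogene with which Gm13139 shares most of its sequence, was at 1567, 1461, 144 and 1005 uncorrected normalized reads in KO and at 1891, 2323, 787 and 1729 in WT, thus low on day 4 like Rex2 and not like Gm13139.

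The 10 transcripts outside the cluster whose deposited log2 values followed those of Gm13139 most closely over the 8 libraries lie on chromosomes 2, 7, 8, 10, 11 and 12, none of them in the interval. They were Epx (eosinophil peroxidase, r = 0.994), Ctrb1 (chymotrypsinogen, 0.982), Gm5662 (0.982), Gm21304, Gm6763, Gm21293 and Gm8764 (0.978 each), Tnnc2 (a troponin of fast muscle, 0.977), Zscan4b (0.975) and Zscan4c (0.973). The 4 at 0.978 had identical values in every library and stand for 1 measurement. None of the 10 encodes a KRAB pattern. Zscan4 genes are known for their short bursts of expression in the ES cells that resemble the 2-cell embryo.

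These transcripts were low in level. Zscan4c was at 0.00, 1.75, 2.77 and 5.33 uncorrected normalized reads in KO and at 57.8, 15.9, 8.85 and 79.9 in WT, and Zscan4b at 0.974, 1.75, 3.70 and 6.67 in KO and at 30.2, 8.81, 11.9 and 43.2 in WT. Every WT library was above every KO library for both, as for Gm13139. Within WT, however, Zscan4c ranged from 8.85 to 79.9, where Gm13139 ranged from 224 to 345. The deposited value of Zscan4c in KO replicate 4 was 1, the floor of the table, where that of Gm13139 was also at its lowest, and without the clone correction this library is not the lowest for Zscan4c. On uncorrected values the r of the 10 with Gm13139 was 0.442 (Gm5662) to 0.913 (Epx), and Epx, the highest of them, ranked 16 among all transcripts outside the members.

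**Figure D4:**
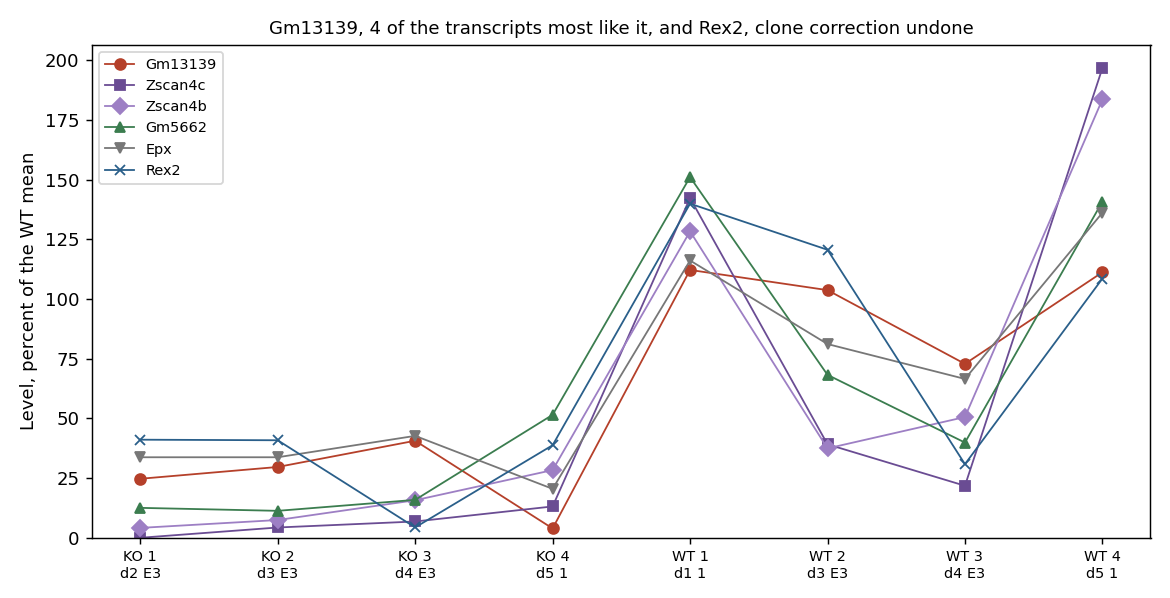
Uncorrected level in each library as percent of the WT mean of the same transcript, for Gm13139, 4 of the 10 transcripts most like it and Rex2. Among the KO libraries Gm13139 is highest on day 4, where Rex2 is lowest with 54.6 normalized reads, and Gm13139, Epx and the Zscan4 genes are lower in every KO than in every WT library.

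Genes around the members were compared with the same fit, by a criterion of fold change (1.5 or more) and p (under 0.05, unadjusted). At an adjusted p under 0.05 limma called 0 of 13558 transcripts (1232 at an unadjusted p under 0.05; limma-voom on the recovered reads also called 0). With the clone correction undone it called 6 transcripts (4 lower and 2 higher in KO), and with a day 4 term as well 8 (6 lower and 2 higher). The 4 lower ones without the day 4 term were Gm21304 and its 3 identical copies (log2 difference -2.46, adjusted p = 0.0173), which had been picked for their likeness to Gm13139. With the day 4 term these 4 were again among the 6 lower ones. So was 1 member, Zfp600, whose call is no support since the gene was chosen on this difference. The criterion took 576 transcripts or 4.25%, 238 of them higher (1.76%) and 338 lower in KO (2.49%). Of the 31 genes of the interval without KRAB zinc fingers 2 met it, both lower in KO. Masp2, a protease of the complement lectin pathway, was lower by a log2 difference of -0.68 (adjusted p = 0.460) and 1700095A21Rik by -1.25 (adjusted p = 0.457) at a level under 30 normalized reads. The median of the 31 was -0.14, with 18 below and 13 above 0. Most of them lie outside the stretch of the members, on both sides of 0. Those that lie between members were all below 0, namely 1700095A21Rik (SE 0.38), Znf41-ps (-0.85 ± 0.72), Gm13034 (-0.56 ± 0.33) and Gm13238 (-0.10 ± 0.37). They were picked out after the values had been seen, so their sign is a description. Znf41-ps holds 59.7% of the 100-base runs of Gm13139, so its counts may not be separate from those of the members.

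The 6 KRAB genes of the interval that are not members had a median of -0.83, and none met the criterion. Gm13247, whose deposited values were 1018, 888, 227 and 463 in KO and 1770, 1941, 675 and 1219 in WT, differed most (-1.21, unadjusted p = 0.0738, adjusted p = 0.586). With day as a block, 5 of these 6 met it (7.49% of all transcripts did), all but Zfp933, and their adjusted p lay between 0.199 and 0.245. Uncorrected, KO of Gm13247 stood at 42.5%, 21% and 43.0% of WT on days 3, 4 and 5, and KO of Zfp933, the gene at the far end of the cluster, at 94.3%, 62.8% and 116%. Of the 100-base runs, 77.9% in Gm13051, 46.1% in Gm13242, 40.8% in Zfp534, 31.2% in Gm13157 and 12.6% in Gm13247 also occur in other genes. Gm13242 shares most with the member Rex2 (39.4%) and Gm13157 with Gm13212 (26.8%). For Zfp933 the share is 0.0%, and its GC content is 40.23%, against 34.92% to 36.46% in the others. The part of shared reads or GC in these values was not tested.

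**Figure D5:**
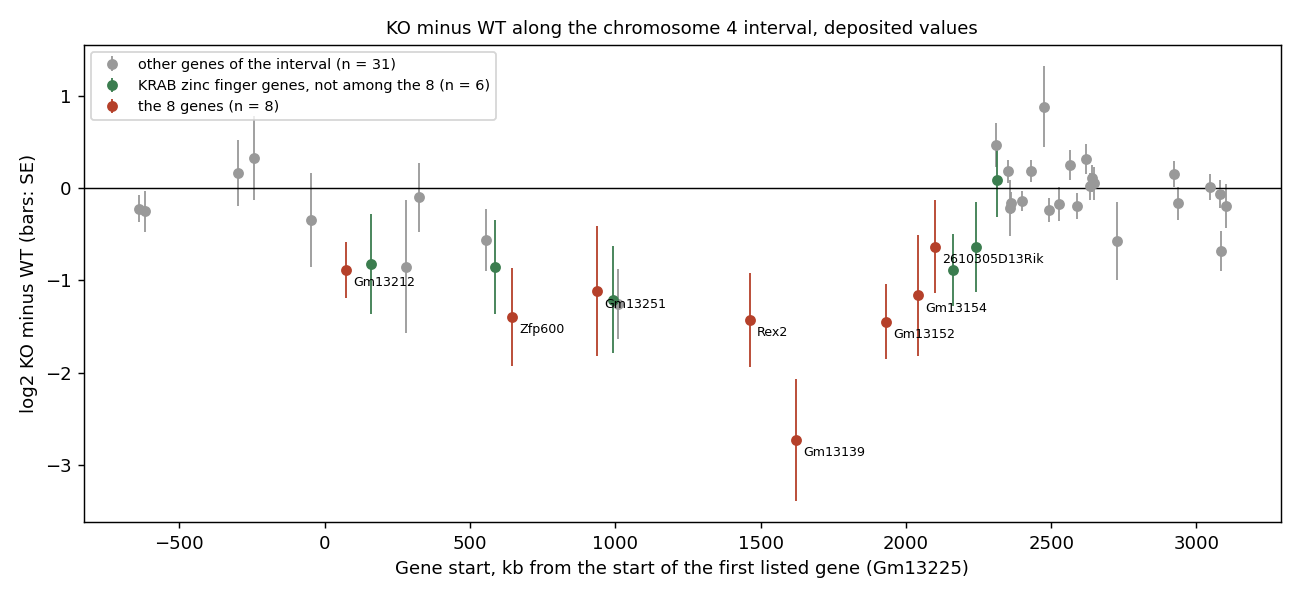
Log2 difference between KO and WT in the deposited values (bars, SE) by the distance of each gene's start from that of Gm13225, for the 8 members (red), the 6 other KRAB genes (green) and the 31 remaining genes of the interval (grey). The KRAB genes lie at -0.64 or below, with Gm13139 at -2.72 the lowest, except for Zfp933 at the right end of the cluster, which lies at 0.09.

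KRAB zinc finger genes elsewhere in the genome were also mostly below 0. Leaving out the members and the 6 of the interval, 147 were in the table, of which 133 had a log2 difference under 0, beside 6784 of all 13558 transcripts, and their median was -0.36. On chromosome 2 this held for 16 of 16 genes (median -0.57), on chromosome 13 for 21 of 22 (-0.40), on chromosome 17 for 26 of 29 (-0.36) and on chromosome 7 for 35 of 41 (-0.28). Only on chromosome 15 was the median above 0 (0.01, with 1 of 3 below 0). Near copies are counted apart here, and Gm14431 and Gm8898 had identical differences (-0.911), so the genes are not independent. The criterion took 5 of the 147, 4 lower and 1 higher. Zfp758 (-1.25, adjusted p = 0.541), Zfp74 (-0.78, 0.457) and Zfp558 (-0.65, 0.446) were lower in KO, and Zfp707 was higher (0.90, 0.294), with deposited values of 188 to 247 in KO and 101 to 132 in WT.

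The count of these genes depends on the day. With day as a block, 45 of 147 were lower by the criterion and 1 higher, against 4.35% of all transcripts lower, and none had an adjusted p under 0.05. With the GC and length trend removed, 6 were lower and 2 higher, with 115 of 147 below 0 and a median of -0.21. These genes have a median GC content of 40.9%. Their median difference on day 4 was -1.14, and -0.50 with the trend removed.

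Among the corepressors, Trim28, the cofactor that binds the KRAB domain, was deposited at 22589 to 26599 in KO and at 20712 to 28302 in WT (log2 difference -0.07, adjusted p = 0.887). Setdb1 was at 2907 to 3236 in KO and at 2887 to 3286 in WT (0.00, adjusted p = 0.997). Of 25 genes of this list, which holds histone and DNA methyltransferases and heterochromatin proteins, 0 met the criterion. An unadjusted p under 0.05 was found for 1 gene, beside 9.09% of all transcripts. This was the histone methyltransferase Ehmt2, with a log2 difference of 0.38 (limma, adjusted p = 0.518). In the block fit by day an unadjusted p under 0.05 was reached by 5 of the 25, beside 2601 of all 13558 transcripts. The chromatin remodeller Atrx was lower by the criterion there, as were 590 of all. With a day 4 term 6 of 24 reached an unadjusted p under 0.05, beside 2883 of all 13496. Atrx and the remodeller Smarcad1 were lower by the criterion in that fit, as were 755 of all. None had an adjusted p under 0.05 in either fit. On day 4 the median of the 24 was -0.51, with 22 below 0.

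Between the clones no member differed by the test. With the correction undone, the log2 difference of clone 1 against E3 had a median of 0.72 over the members, and 0 of 8 had an adjusted p under 0.05 (limma called 0.0% of all transcripts, and at an unadjusted p under 0.05 it took 0 members and 8.33% of all). Both libraries of day 4 were from clone E3. Without them the median was -0.07, and Gm13251 had the smallest p of the members (-0.65 ± 0.14, adjusted p = 0.104). The fitted clone difference of Gm13139 was below 0 in either fit (-1.03 ± 0.63 and -1.29 ± 0.63, limma, adjusted p of 0.683 and 0.283). It rested on the 1 KO library of clone 1, at 12 against 76.0 to 125 in the KO libraries of clone E3. In WT the order was the reverse, with 345 and 342 in clone 1 against 319 and 224 in clone E3.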

How the data were processed

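The values were used as the authors deposited them: one table of signal values, which are read counts per transcript (TruSeq libraries, reads aligned to mm10 with Bowtie2 2.2.1 after CASAVA 1.8, per the submitters' processing notes) that the authors normalized with DESeq2 and corrected for the clone in Partek 6.6, with 1 as the lowest value. Reads were recovered by finding, per transcript, the whole numbers and the 1 clone shift that give all 8 values (unique for 13496 of 13558 transcripts; all deposited values were given back; tested on simulated data). Differences were fitted over all transcripts and all 8 libraries with limma 3.58.1 (R 4.3.3), with terms for genotype and clone, on log2 of the value + 1, with Benjamini-Hochberg adjustment, after limma's test had been run on simulated data. As alternatives the day was a block (6 libraries of days 3, 4 and 5), the correction was undone, and limma-voom was run with TMM factors. Day pairs the libraries by their labels: uncorrected deviations from the group means correlated at 0.54, 0.63 and 0.52 within days 3, 4 and 5 (median of other pairs -0.18), though on deposited values day 5 gave -0.23.

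The members and gene lists were chosen with earlier results of these data known. Other genes were named if they met the criterion (neighbours, KRAB genes with a mean of at least 20), if a corepressor gene had an unadjusted p under 0.05, or by the 10 highest correlations with Gm13139; Trim28, Setdb1, Trim71 and the cell type markers were always named, and Znf41-ps, Gm13247, Zfp933, Atrx, Smarcad1 and Gm13251's clone value were singled out after their values were seen. Gm13034 and Gm13238 were likewise singled out after their values were seen. Positions are from GENCODE M21 and RefSeq, both of mm10, where 13495 of 13558 symbols matched. KRAB zinc finger genes were found in translated GENCODE coding sequences (at least 3 C2H2 fingers and a KRAB pattern), not in RefSeq proteins as planned, and the planned test was kept although the values are not raw counts.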

Additional observations from a re-analysis of the deposited data

Results flagged for a closer look

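In 56 groups of 4 values (8 members and 6 other KRAB genes, 2 genotypes, deposited and uncorrected), 5 held a library whose gap to the nearest other, as a share of the range, exceeded Dixon's critical value for 4 samples. Chance flags about 1 in 20 groups, here 2.8, and the genes are not independent. Gm13212 was highest in WT replicate 1 with a deposited value of 164. Uncorrected, Rex2 was lowest in KO replicate 3 at 54.6, and in WT replicate 3 2610305D13Rik was lowest at 950, Zfp600 at 230 and Gm13051 at 818. The 4 uncorrected values are all from day 4 and clone E3. The cause was not tested.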

How the results depend on the processing

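The median log2 difference of the members kept its direction under all 21 alternatives, between -0.90 and -1.76, and every member stayed below 0 in each. With 1 library left out at a time, 3 to 7 members were free of overlap (7 without WT replicate 3, where 7.12% of all transcripts were lower without overlap), 260 to 835 of all transcripts, 1 to 4 neighbouring genes and 3 to 10 of 153 KRAB genes outside the members (6 of them also counted as neighbours) met the criterion, 0 to 2 corepressor genes had an unadjusted p under 0.05, and the members' median on day 4 was -1.54 to -2.81 (-1.54 without KO replicate 3). With the replicate block by day, which pairs the libraries, 1015 of all transcripts, 7 neighbours and 51 of these KRAB genes met the criterion and 5 corepressor genes had p under 0.05 (1025, 6, 43 and 4 with the correction undone as well), against 576, 2, 5 and 1 without it. Of all transcripts, 2601 had an unadjusted p under 0.05 with the block (2521 with the correction undone as well), against 1232 without it.

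The remaining alternatives that moved a count follow. Without a clone term, 5 neighbours, 8 KRAB genes and 2 corepressor genes passed. A linear model on untransformed values gave 382 transcripts, 1 neighbour and 2 corepressor genes, and a mean of at least 50 gave 315 transcripts. Other settings were chosen after seeing the data. Without the libraries of day 4 there were 7 members without overlap (10.7% of all transcripts), 931 transcripts, 6 neighbours, 26 KRAB genes and 2 corepressor genes, and with the correction undone too these were 8 (10.3%), 1005, 6, 25 and 2. With a day 4 term there were 1167 transcripts, 9 neighbours, 60 KRAB genes and 6 corepressor genes. An unadjusted p under 0.05 was reached by 2883 of all 13496 transcripts in that fit. With the GC and length trend removed, 9 KRAB genes passed and the members' median on day 4 was -1.29. The cause was not tested.

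Values near 0 changed sign. Zfp933 (0.09) was at -0.08 with the day 4 term, -0.13 with the replicate block (-0.18 with the correction undone), and between -0.13 and 0.41 with 1 library left out. Trim28 (-0.07) ran from -0.21 to 0.03 with 1 library left out. Setdb1 (0.00) was at 0.07 with the GC and length trend removed, at 0.02 with the replicate block on either scale, at 0.00 with limma-voom and between -0.05 and 0.05 with 1 library left out. Precision is limited by 4 libraries a group and, at the low end, by counts such as 7 reads of Gm13152 and 9 of Gm13139.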
